A study of Mus musculus with 20 samples.

Results

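This account sets the 3 libraries labelled ih_CTC against the 3 labelled ih_STC_BM, 6 of the 20 libraries of a mouse RNA-sequencing series, across all 43432 genes of the deposited table. Libraries were chosen by their cell type label alone. The series profiled mouse host cells that had grown beside SU3, a line of human glioma stem cells. The label of ih_CTC names macrophages, called malignantly transformed, from a peritoneal xenograft. The label of ih_STC_BM names mesenchymal stem cells, also called malignantly transformed, that were cultured out of an SU3 tumour in a host with damaged and rebuilt bone marrow. Both groups came from nude mice, which lack a working thymus and so have few T cells, but keep macrophages and a marrow stroma. Both were grown in DMEM with 10% fetal bovine serum. The labels speak of monoclonal culture, so each line may stand for 1 clone, and they give no age, sex or drug treatment. RNA was extracted with TRIzol and made into libraries with a TruSeq kit.

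Macrophages are phagocytes of the myeloid lineage that carry the pan-leukocyte phosphatase Ptprc (CD45), depend on the receptor Csf1r and are specified by the transcription factor Spi1. Mesenchymal stem cells are adherent stromal cells that deposit matrix, carry Thy1, Eng, Pdgfra and Pdgfrb, and lack CD45. Stromal cells keep a record of the body region they came from in their Hox genes, and they answer inflammatory signals by secreting chemokines, interleukin 6 and prostaglandins. Many of those secreted signals are switched on by NF-kB, a transcription factor that binds short sites close to the start of its target genes.

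Total expected counts were 9591643 to 10583510 in ih_CTC and 8794777 to 9455417 in ih_STC_BM. The share of reads in introns was 7.32%, 6.10% and 6.92% in the ih_CTC libraries, against 2.34%, 8.52% and 1.79% in the ih_STC_BM libraries. The 3 ih_STC_BM libraries stood almost as far from each other as from ih_CTC. Their profile distance, the root mean square of the log2 CPM differences over all tested genes, was 1.04 to 1.57 within ih_STC_BM and 0.474 to 0.645 within ih_CTC, against 1.31 to 1.60 between the groups. CPM, counts relative to TMM-scaled library size, are given in the order of libraries 1, 2 and 3. They are not divided by gene length, so they compare libraries and not genes. A gene was called when its adjusted p in edgeR's quasi-likelihood test was under 0.05. A further value given "without" a library is the log2 fold change, fold or count of genes with that library left out, shown where the fold or the count moved by over 1.5 times. The labels do not tell whether libraries of a line came from different cultures or mice, so a p-value here measures the spread between libraries, which may be technical.

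Neither label matched its defining markers in full. Of the 6 genes used to check the macrophage label, Ptprc stood at 0.288, 0.163 and 0.257 CPM in ih_CTC, against 0.247, 0.608 and 0.147 CPM in ih_STC_BM. Spi1 stood at 0.481, 0.0816 and 0.171 CPM in ih_CTC, against 0.493, 0.507 and 0 CPM in ih_STC_BM. The receptor Csf1r stood at 2.88, 1.8 and 3.25 CPM in ih_CTC, against 6.29, 1.32 and 0.587 CPM in ih_STC_BM. All 3 genes were close to 0 in both groups, far under the means of 214 CPM for Ptprc and 981 CPM for Csf1r in the MSC group, which is labelled as normal marrow mesenchymal stem cells. The surface protein Adgre1 (F4/80) was under 1 CPM in all 6 libraries. The integrin Itgam stood at 0.0962, 0.163 and 0.342 CPM in ih_CTC, against 1.36, 1.62 and 0.293 CPM in ih_STC_BM and overlapped between the groups; it was lower in ih_CTC (log2 fold change -2.41 ± 0.61 SE, adjusted p = 0.013), a call that ended without ih_CTC 1 (adjusted p = 0.058) or ih_CTC 2 (0.061). Cd68, a lysosomal protein of macrophages, stood at 4.04, 2.04 and 4.88 CPM in ih_CTC, against 19.2, 15.9 and 9.97 CPM in ih_STC_BM, and was lower in ih_CTC (log2 fold change -2.04, adjusted p = 0.033). That call ended without ih_CTC 1 (adjusted p = 0.084), ih_CTC 2 (0.13), ih_CTC 3 (0.057) or ih_STC_BM 1 (0.088). The myeloid lysozyme Lyz2 was also lower in ih_CTC, at 4.33, 3.26 and 3.85 CPM in ih_CTC, against 24.4, 45.1 and 8.95 CPM in ih_STC_BM (log2 fold change -2.78 ± 0.46 SE, adjusted p = 0.00086, and -2.14 without ih_STC_BM 2). The endotoxin co-receptor Cd14 went the other way, at 93.4, 92.3 and 101 CPM in ih_CTC, against 18.4, 3.45 and 37.1 CPM in ih_STC_BM (log2 fold change 2.29 ± 0.57 SE, adjusted p = 0.013, and 3.08 without ih_STC_BM 3), with no overlap between the groups.

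Of the 8 genes used to check the mesenchymal label, most were present in both groups. Pdgfra, a growth factor receptor of stromal cells, stood at 176, 206 and 191 CPM in ih_CTC, against 247, 200.2 and 81.5 CPM in ih_STC_BM, and Pdgfrb at 122, 129 and 122 CPM in ih_CTC, against 247, 101 and 49 CPM in ih_STC_BM. Both receptors overlapped between the groups. The TGF-beta co-receptor Eng stood at 29.4, 28.3 and 28.6 CPM in ih_CTC, against 50.4, 37.3 and 51 CPM in ih_STC_BM, and the adhesion receptor Cd44 at 336, 347 and 280.0 CPM in ih_CTC, against 328, 109 and 66.1 CPM in ih_STC_BM. The enzyme Nt5e (CD73) stood at 10.5, 8.49 and 6.51 CPM in ih_CTC, against 1.73, 4.16 and 0.733 CPM in ih_STC_BM. None of these 5 passed the test. The surface antigen Ly6a (Sca-1) was lower in ih_CTC, at 80.0, 71.8 and 59 CPM in ih_CTC, against 87.2, 444 and 112 CPM in ih_STC_BM (log2 fold change -1.61 ± 0.54 SE, adjusted p = 0.047, and -0.47 without ih_STC_BM 2), and its call ended without ih_CTC 1 (adjusted p = 0.10), ih_CTC 2 (0.13), ih_CTC 3 (0.13) or ih_STC_BM 2 (0.41). Thy1, a surface protein commonly used to define mesenchymal stem cells, separated the groups and was higher in the line labelled as macrophages. It stood at 41.2, 42.6 and 67.6 CPM in ih_CTC, against 0.247, 0.304 and 0.147 CPM in ih_STC_BM (log2 fold change 7.65 ± 0.88 SE, adjusted p = 3.2e-05). The ih_STC_BM libraries thus carried almost none of it. The MSC group, labelled as normal mesenchymal stem cells, was also low, at a mean of 0.771 CPM (0.312 to 1.23), and MDSC stood at a mean of 12.1 CPM. Low Thy1 therefore did not set ih_STC_BM apart from the MSC group. However, the 20 macrophage markers summed to 28609 and 21396 CPM in the 2 MSC libraries. They summed to 125 to 137 CPM in ih_CTC and 63.6 to 99.0 CPM in ih_STC_BM. The Thy1 level of the MSC group therefore says little about normal stroma. Prrx1, a transcription factor of limb and skeletal mesenchyme, was 530, 592 and 572 CPM in ih_CTC, against 136, 137 and 76.1 CPM in ih_STC_BM (log2 fold change 2.28 ± 0.36 SE, adjusted p = 0.00054). Grem1, a secreted inhibitor of bone morphogenetic proteins (BMPs), was also higher in ih_CTC, at 396, 434 and 970.2 CPM in ih_CTC, against 45.9, 10.5 and 152 CPM in ih_STC_BM (log2 fold change 3.11 ± 0.78 SE, adjusted p = 0.013, and 4.37 without ih_STC_BM 3), a call that ended without ih_STC_BM 1 (adjusted p = 0.051). In all, 3 of 18 mesenchymal markers tested (16.7%) were higher and 2 (11.1%) lower in ih_CTC, against 7.45% and 10.8% of all tested genes. None of these markers was lower without ih_CTC 1 or ih_CTC 2, and 1 was lower without ih_CTC 3 or ih_STC_BM 2. Of the 20 macrophage markers tested, 2 (10%) were higher and 3 (15%) lower (1 without ih_CTC 1 or ih_CTC 2 and 7 without ih_STC_BM 3). The macrophage shares were close to those of all tested genes. The 2 groups are therefore called by their line names below.

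Of 15779 genes with counts enough to be tested, 2877 were called, or 18.2%: 1176 (7.45%) were higher in ih_CTC and 1701 (10.8%) lower. Counts of called members of a gene list, above and below, are to be set against these shares. The filter on low counts took in all 7 groups of the series. Genes tested, in the lists as in the whole, thus include some with 0 counts in all 6 libraries. In the 6 libraries alone, 12497 genes passed the filter. Changes above 1 on the log2 scale made up 1052 of the higher genes (6.67% of those tested) and 1415 of the lower (8.97%). The libraries of the groups did not overlap in 33.0% of tested genes, 17.7% with ih_CTC higher and 15.3% with ih_CTC lower, and 16.8% were both called and without overlap. The median log2 fold change over all tested genes was -0.01. Without ih_STC_BM 2, the library of high intron share in its group, 5330 genes were called, 2572 of the 2877 among them. There were 1372, 1150 or 1822 calls without ih_CTC 1, ih_CTC 2 or ih_CTC 3, and 823 in a fit of the 6 libraries alone.

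**Figure D1:**
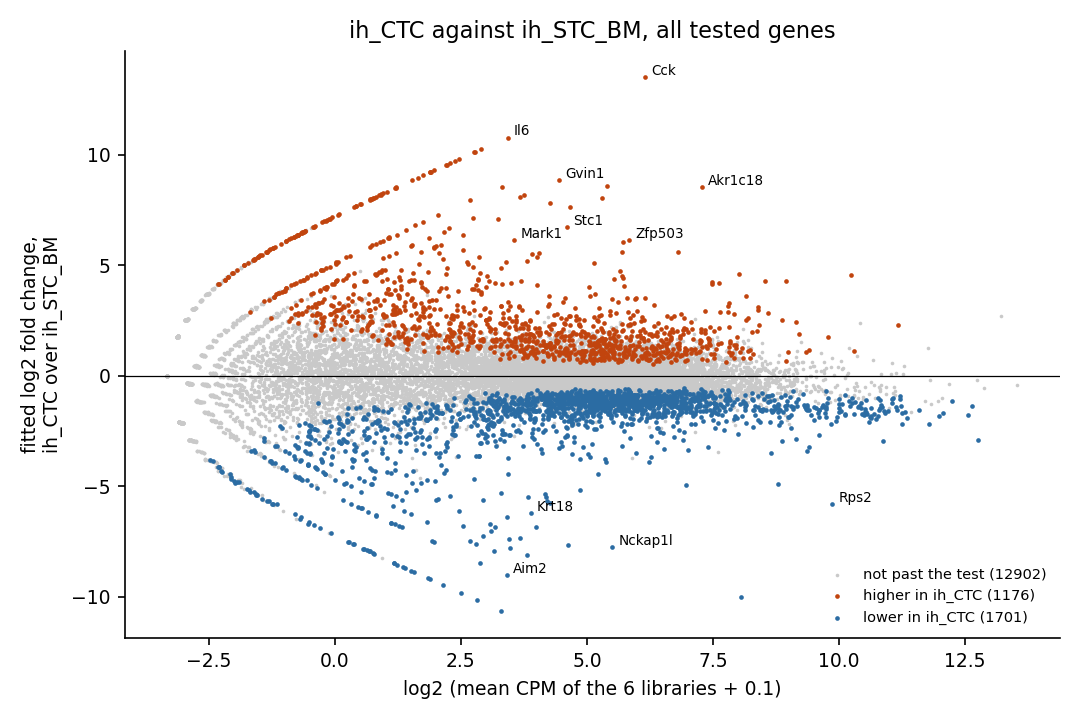
Each point is 1 of 15779 tested genes, with its mean level over the 6 libraries across and its fitted log2 fold change, ih_CTC over ih_STC_BM, up. The 1176 red genes were higher and the 1701 blue genes lower in ih_CTC at an adjusted p under 0.05; curved lines of points at low levels are genes with 0 or few counts in 1 group, where the fitted value is no bound.

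The 12 largest rises in ih_CTC, ranked by the naming rule given below, included 2 hormone genes, Cck and Stc1. Cck, which encodes the gut and brain peptide hormone cholecystokinin, stood at 154, 149 and 120.1 CPM in ih_CTC, against 0, 0 and 0 CPM in ih_STC_BM. No read was counted in any ih_STC_BM library, so the level was at least 1162-fold higher against a floor of 3 counts over the group (adjusted p = 4.3e-07, and at least 699.9-fold without ih_STC_BM 2). Akr1c18, an enzyme that inactivates progesterone, stood at 393, 365 and 171 CPM in ih_CTC, against 1.85, 0.203 and 0.44 CPM in ih_STC_BM (log2 fold change 8.54 ± 1.05 SE, adjusted p = 6.3e-05, and 9.93 without ih_STC_BM 1). Stc1, a secreted glycoprotein hormone, stood at 53.8, 58.6 and 31.4 CPM in ih_CTC, against 0.987, 0.304 and 0 CPM in ih_STC_BM (log2 fold change 6.73 ± 0.78 SE, adjusted p = 3.6e-05, and 8.0 without ih_STC_BM 1). Each of these genes was under 2 CPM in every ih_STC_BM library.

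Adcy1, a calcium-stimulated adenylyl cyclase that makes cyclic AMP, stood at 61.2, 72.3 and 102 CPM in ih_CTC, against 0, 0.405 and 0.44 CPM in ih_STC_BM (log2 fold change 8.06 ± 0.72 SE, adjusted p = 2.8e-06). Zfp503, a zinc finger repressor of developing limb and brain, stood at 115, 118 and 104 CPM in ih_CTC, against 2.84, 1.12 and 0.733 CPM in ih_STC_BM (log2 fold change 6.15 ± 0.49 SE, adjusted p = 8.7e-07, and 6.88 without ih_STC_BM 1). Mark1, a kinase that loosens proteins from microtubules, stood at 22.7, 23.3 and 22.9 CPM in ih_CTC, against 0.123, 0.608 and 0.147 CPM in ih_STC_BM (log2 fold change 6.14 ± 0.61 SE, adjusted p = 1e-05, and 7.31 without ih_STC_BM 2). Every ih_CTC library was above 20 CPM and every ih_STC_BM library under 3 CPM for these genes. Ms4a4d, a membrane-spanning protein, stood at 18.8, 23.5 and 33.1 CPM in ih_CTC, against 0, 0.203 and 0 CPM in ih_STC_BM. By the ratio of pooled counts, each relative to pooled scaled library size, it was 315-fold higher (95% counting interval 86.8 to 2601, adjusted p = 0.00082, and at least 126-fold without ih_STC_BM 2). The interferon-inducible GTPase Gvin1 stood at 54.5, 51.2 and 23.7 CPM in ih_CTC, against 0, 0.101 and 0.147 CPM in ih_STC_BM, 531-fold higher by the same measure (147 to 4390.0, adjusted p = 0.012), but it has near-identical copies between which reads can be split, so its value is uncertain. Counting intervals cover counting error only.

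Among the 12 largest falls in ih_CTC by the same rule were Nckap1l, Arhgap9 and Arhgap30, genes known mainly from blood cells. Nckap1l (Hem1), the blood-cell subunit of the WAVE complex that builds branched actin, stood at 0.673, 0.326 and 0.257 CPM in ih_CTC, against 88.8, 92.9 and 89 CPM in ih_STC_BM (log2 fold change -7.73 ± 0.63 SE, adjusted p = 9.9e-07). Arhgap9, a GTPase-activating protein found mainly in blood cells, stood at 0.0962, 0 and 0.257 CPM in ih_CTC, against 25, 12.8 and 27.1 CPM in ih_STC_BM (log2 fold change -7.39 ± 0.62 SE, adjusted p = 1.2e-06, and -8.57 without ih_CTC 3). Arhgap30, of the same family, stood at 0.288, 0.245 and 0.171 CPM in ih_CTC, against 13.9, 20.2 and 28.7 CPM in ih_STC_BM (log2 fold change -6.41 ± 0.40 SE, adjusted p = 6.1e-08). All 3 ih_STC_BM libraries carried these transcripts above 10 CPM while Ptprc was under 1 CPM in each. In bulk RNA, fewer cells of a type and less RNA per cell cannot be told apart. Over the 16 pan-leukocyte markers tested, 3 were lower in ih_CTC, or 18.8% against 10.8% of all tested genes, and none higher. Their summed level was 68.6 to 74.0 CPM in ih_CTC, against 108 to 264 CPM in ih_STC_BM. The part of leukocytes in these differences was not tested.

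Aim2, a sensor of DNA in the cytosol that triggers inflammasomes, stood at 0, 0.0816 and 0 CPM in ih_CTC, against 10.2, 44.4 and 8.51 CPM in ih_STC_BM, a ratio of 802-fold lower in ih_CTC (95% counting interval 143 to 31722, adjusted p = 0.00012, and at least 172-fold without ih_CTC 2, 529-fold without ih_CTC 3, 324-fold without ih_STC_BM 2). Krt18, a keratin of simple epithelia, stood at 0.385, 0.326 and 0.428 CPM in ih_CTC, against 42.5, 27.9 and 16.6 CPM in ih_STC_BM (log2 fold change -6.21 ± 0.89 SE, adjusted p = 0.00025). Cadm1, a cell adhesion molecule of the immunoglobulin family, stood at 0.0962, 0.326 and 0 CPM in ih_CTC, against 18.9, 21.4 and 35.2 CPM in ih_STC_BM (log2 fold change -7.32 ± 0.99 SE, adjusted p = 0.00017, and -8.76 without ih_CTC 2). In each case every ih_STC_BM library was above every ih_CTC library. Levels of other strongly lower genes were uneven within ih_STC_BM. Rcan2, an inhibitor of calcineurin, stood at 0.481, 0.816 and 0.771 CPM in ih_CTC, against 81, 23.8 and 2.93 CPM in ih_STC_BM (log2 fold change -5.67 ± 0.89 SE, adjusted p = 0.00056, and -4.26 without ih_STC_BM 1, -6.27 without ih_STC_BM 3). Nptx1, a neuronal pentraxin, stood at 0.192, 0.0816 and 0.514 CPM in ih_CTC, against 88.2, 3.85 and 1.91 CPM in ih_STC_BM (log2 fold change -6.83 ± 1.29 SE, adjusted p = 0.0024, and -7.75 without ih_CTC 3, -3.41 without ih_STC_BM 1, -7.44 without ih_STC_BM 3). Chchd10, a mitochondrial protein, and Avil, an actin-binding protein, were highest in ih_STC_BM 3. Chchd10 stood at 1.35, 0.735 and 0.257 CPM in ih_CTC, against 10.5, 16.7 and 79.3 CPM in ih_STC_BM (log2 fold change -5.5 ± 0.97 SE, adjusted p = 0.0014, and -6.12 without ih_CTC 1, -4.18 without ih_STC_BM 3). Avil stood at 0.385, 0.408 and 1.03 CPM in ih_CTC, against 8.39, 11.9 and 63.1 CPM in ih_STC_BM (log2 fold change -5.48 ± 0.83 SE, adjusted p = 0.00043, and -6.08 without ih_CTC 3, -4.07 without ih_STC_BM 3). Ccdc3, a secreted protein, stood at 0.673, 0.245 and 1.63 CPM in ih_CTC, against 26.3, 40.0 and 38.3 CPM in ih_STC_BM (log2 fold change -5.34 ± 0.70 SE, adjusted p = 0.00019, and -6.24 without ih_CTC 3).

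Chemokines are the secreted proteins that draw leukocytes to a site. Of 19 tested, 6 (31.6%) were higher and 1 (5.26%) lower in ih_CTC, against 7.45% and 10.8% of all tested genes. The number lower was 2 without ih_STC_BM 2 or ih_STC_BM 3. Their median log2 fold change was 1.21 (1.11 with genes at 0 in a group set at their bound). Cxcl5, a neutrophil attractant, stood at 2542, 2413 and 2037 CPM in ih_CTC, against 21.8, 37.5 and 241 CPM in ih_STC_BM (log2 fold change 4.54 ± 0.83 SE, adjusted p = 0.0019, and 6.25 without ih_STC_BM 3). Cxcl1, which binds the same neutrophil receptor, stood at 544, 504 and 539.7 CPM in ih_CTC, against 36.5, 15.9 and 79.2 CPM in ih_STC_BM (log2 fold change 3.6 ± 0.63 SE, adjusted p = 0.0014, and 4.29 without ih_STC_BM 3). Ccl2, the main monocyte attractant, stood at 946, 859.6 and 1027 CPM in ih_CTC, against 40.9, 33.3 and 68.5 CPM in ih_STC_BM (log2 fold change 4.31 ± 0.59 SE, adjusted p = 0.00018). For all 3 genes every ih_CTC library was above every ih_STC_BM library, and ih_STC_BM 3 was the highest of its group. Ccl7, another monocyte attractant named after its values were seen, stood at 438, 399.7 and 334 CPM in ih_CTC, against 44.1, 49.2 and 63.9 CPM in ih_STC_BM (log2 fold change 2.9 ± 0.52 SE, adjusted p = 0.0017).

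Cxcl3 went against its neighbours. It is a neutrophil attractant close in sequence to Cxcl1, and it stood at 0, 0.0816 and 0.171 CPM in ih_CTC, against 4.32, 6.18 and 34.8 CPM in ih_STC_BM. It was 154-fold lower in ih_CTC by the ratio of pooled counts relative to pooled library size (95% counting interval 52.1 to 749, adjusted p = 0.00037, and 304-fold without ih_CTC 3, 61.1-fold without ih_STC_BM 3). Cxcl2, another gene of that kind named after its values were seen, stood at 1.83, 1.55 and 0.942 CPM in ih_CTC, against 0.74, 0.405 and 0.88 CPM in ih_STC_BM and did not pass the test (adjusted p = 0.46). These genes share 1 cluster on chromosome 5, positions 90759299 to 90905909 in the deposited annotation, where 2 of 6 tested genes were higher and 1 was lower in ih_CTC. The Ccl2 cluster on chromosome 11, positions 82035571 to 82305690, had 3 higher and none lower of 5 tested.

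The 250 bases before the start of Cxcl1, Cxcl2 and Cxcl3 are shown because these 3 genes share an NF-kB match and yet differ in their call. No promoter was available for Cxcl5 and Ccl2. The motif searched on both strands was GGGA, then any base, then TTTCC, and it occurs in the same window of 117 of 32851 RefSeq promoters (0.356%). Sequences are RefSeq, GRCm38.p6, plus strand, 5′ to 3′, with the match in capitals. Il6, described next, is shown beside them.
Cxcl1, higher in ih_CTC, chr5:90890995-90891244: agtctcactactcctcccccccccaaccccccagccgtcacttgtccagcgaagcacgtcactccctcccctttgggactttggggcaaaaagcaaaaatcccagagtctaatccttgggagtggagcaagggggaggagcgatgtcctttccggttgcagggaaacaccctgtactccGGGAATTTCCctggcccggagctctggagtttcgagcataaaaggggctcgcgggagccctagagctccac
Cxcl2, not called, chr5:90903649-90903898: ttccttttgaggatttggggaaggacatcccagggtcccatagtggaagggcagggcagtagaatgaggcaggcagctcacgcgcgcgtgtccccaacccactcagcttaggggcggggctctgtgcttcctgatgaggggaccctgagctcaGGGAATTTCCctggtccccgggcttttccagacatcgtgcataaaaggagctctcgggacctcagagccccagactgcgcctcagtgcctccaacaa
Cxcl3, lower in ih_CTC, chr5:90785851-90786100: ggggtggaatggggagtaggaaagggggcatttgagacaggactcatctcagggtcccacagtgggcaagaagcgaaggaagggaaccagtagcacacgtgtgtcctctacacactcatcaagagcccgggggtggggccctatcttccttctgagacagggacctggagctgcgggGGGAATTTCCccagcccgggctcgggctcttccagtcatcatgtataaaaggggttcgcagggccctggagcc
Il6, higher in ih_CTC, chr5:30012864-30013113: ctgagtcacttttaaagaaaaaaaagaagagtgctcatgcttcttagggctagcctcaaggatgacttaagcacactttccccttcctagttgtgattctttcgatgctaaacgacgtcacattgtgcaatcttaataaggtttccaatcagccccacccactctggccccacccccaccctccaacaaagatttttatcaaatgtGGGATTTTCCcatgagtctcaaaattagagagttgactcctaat
Counted from the gene's start, the match began at position -71 in Cxcl1, -97 in Cxcl2, -73 in Cxcl3 and -44 in Il6. Its 10 letters were GGGAATTTCC in the 3 Cxcl genes and GGGATTTTCC in Il6. Over the chemokine, cytokine and prostaglandin lists, 22 genes were higher in ih_CTC, and 17 of them had a promoter in the table, of which 2 held the NF-kB letters. Of the other 37 tested genes, 28 had one, and 3 held them: Cxcl2, Cxcl3 and Csf1, whose match began at position -154. A C/EBP motif, TTGCNNAA, was found in 6 of the 17 and 1 of the 28, against 9.56% of all promoters. A gene counted here when any of its promoters matched, while the 9.56% counts each promoter singly, so the shares are not like for like. Il33 and Il1rl1, among those with a C/EBP match, each had another promoter without it. A match is a string of letters, and binding was not measured.

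Cytokines showed the largest share of higher genes of these 3 lists. Of 20 cytokines, growth-stimulating factors and their receptors tested, 9 were higher and 2 lower in ih_CTC, with a median log2 fold change of 2.44. The number lower was 0 without ih_CTC 1 and 1 without ih_CTC 2, ih_CTC 3, ih_STC_BM 1 or ih_STC_BM 2. Il6, the acute-phase cytokine interleukin 6, stood at 17.8, 17.1 and 29.3 CPM in ih_CTC, against 0, 0 and 0 CPM in ih_STC_BM, at least 177-fold higher (adjusted p = 0.0011, and at least 107-fold without ih_STC_BM 2). Il1a, an alarm signal released by damaged cells, stood at 104, 106 and 40.1 CPM in ih_CTC, against 0.123, 0.101 and 0.44 CPM in ih_STC_BM (log2 fold change 8.58 ± 1.35 SE, adjusted p = 0.00056, and 9.35 without ih_STC_BM 3). Lif, a cytokine of the interleukin 6 family that keeps mouse stem cells undifferentiated, stood at 302, 333 and 378 CPM in ih_CTC, against 17.5, 11.4 and 24.5 CPM in ih_STC_BM (log2 fold change 4.25 ± 0.55 SE, adjusted p = 0.00012). None of these 3 overlapped between the groups. Csf2, a growth factor for granulocytes and macrophages, stood at 3.75, 3.1 and 4.28 CPM in ih_CTC, against 0.247, 0 and 0.293 CPM in ih_STC_BM (log2 fold change 4.37 ± 1.17 SE, adjusted p = 0.019, and 3.75 without ih_STC_BM 2). Csf1, the growth factor for macrophages that comes first in the list, stood at 557, 583 and 689.6 CPM in ih_CTC, against 964, 1446 and 835 CPM in ih_STC_BM and did not pass the test.

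Il33, an alarm cytokine kept in the nuclei of stromal cells, stood at 473, 479 and 165 CPM in ih_CTC, against 58, 2.23 and 0.733 CPM in ih_STC_BM (log2 fold change 4.2 ± 1.15 SE, adjusted p = 0.019, and 7.91 without ih_STC_BM 1, 3.57 without ih_STC_BM 3), with ih_STC_BM 1 the only ih_STC_BM library above 3 CPM. Its call ended without ih_CTC 1 (adjusted p = 0.051) or ih_CTC 2 (0.058). Il1rl1 and Osmr were named after their values were seen. Il1rl1, the receptor for Il33, stood at 3169.7, 3371 and 4925 CPM in ih_CTC, against 928, 1065 and 316 CPM in ih_STC_BM (log2 fold change 2.31 ± 0.60 SE, adjusted p = 0.015), and lost its call without ih_STC_BM 3 (adjusted p = 0.056). Osmr, the receptor for oncostatin M, stood at 106, 121 and 167 CPM in ih_CTC, against 9.0, 20.7 and 4.69 CPM in ih_STC_BM (log2 fold change 3.51 ± 0.73 SE, adjusted p = 0.0044, and 4.26 without ih_STC_BM 2). Without ih_STC_BM 1 and ih_STC_BM 3, both of low intron share, 4 cytokine-list genes were higher and 1 lower.

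**Figure D2:**
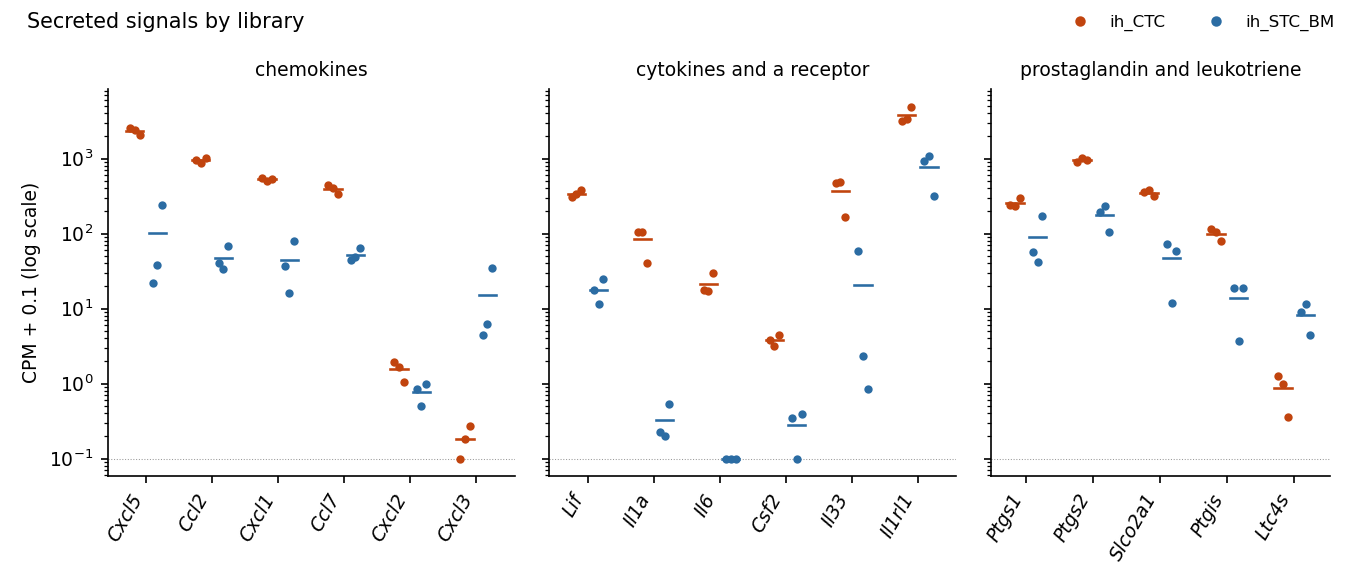
Level of 17 secreted-signal genes in each library, in CPM + 0.1 on a log scale, with ih_CTC in red on the left and ih_STC_BM in blue on the right of each gene; bars are means of 3 libraries and the dotted line marks 0 CPM. The ih_CTC points lie above the ih_STC_BM points in 15 genes, and the reverse holds for Cxcl3 and Ltc4s.

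Among genes of prostaglandin synthesis and uptake, more were higher than lower in ih_CTC. Of 20 tested, 7 were higher and 1 lower (2 without ih_STC_BM 2), with a median log2 fold change of 1.54. Ptgs2, the inducible cyclooxygenase that starts prostaglandin synthesis, stood at 909, 1014 and 962 CPM in ih_CTC, against 195, 235 and 106 CPM in ih_STC_BM (log2 fold change 2.43 ± 0.62 SE, adjusted p = 0.015). Ptgis, which makes prostacyclin, stood at 114, 104 and 78.6 CPM in ih_CTC, against 18.5, 3.55 and 18.6 CPM in ih_STC_BM (log2 fold change 2.87 ± 0.74 SE, adjusted p = 0.015). Slco2a1, the transporter that takes prostaglandins back into cells, stood at 356, 378 and 313 CPM in ih_CTC, against 72.4, 11.8 and 59.1 CPM in ih_STC_BM (log2 fold change 2.87 ± 0.54 SE, adjusted p = 0.0023). All ih_CTC libraries were above all ih_STC_BM libraries for these genes. Ptgs1, the constitutive cyclooxygenase, stood at 237, 231 and 295 CPM in ih_CTC, against 56.5, 41.5 and 173 CPM in ih_STC_BM (log2 fold change 1.5 ± 0.40 SE, adjusted p = 0.018, and 2.33 without ih_STC_BM 3). Ltc4s, which makes leukotriene C4 from a different branch of the pathway, was the lower gene, at 1.15, 0.898 and 0.257 CPM in ih_CTC, against 8.88, 11.3 and 4.4 CPM in ih_STC_BM (log2 fold change -3.4 ± 0.65 SE, adjusted p = 0.0035). The calls of Ptgs2 (adjusted p = 0.058 without ih_STC_BM 3) and Ptgs1 (0.055 without ih_CTC 3 and 0.072 without ih_STC_BM 1) each depended on single libraries.

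Growth factors that act on epithelia and vessels followed. Hgf, a mesenchymal factor that drives epithelial scattering, stood at 14.6, 17.1 and 14 CPM in ih_CTC, against 0.493, 1.22 and 0.147 CPM in ih_STC_BM (log2 fold change 4.52 ± 0.80 SE, adjusted p = 0.0015, and 5.49 without ih_STC_BM 2). Fgf7, the keratinocyte growth factor, stood at 351, 364 and 553 CPM in ih_CTC, against 34.5, 117 and 30.9 CPM in ih_STC_BM (log2 fold change 2.79 ± 0.66 SE, adjusted p = 0.0093, and 3.71 without ih_STC_BM 2). Flt1, a receptor for vascular endothelial growth factors, stood at 9.42, 9.88 and 11.3 CPM in ih_CTC, against 2.47, 0.507 and 1.03 CPM in ih_STC_BM (log2 fold change 2.94 ± 0.49 SE, adjusted p = 0.00095, and 3.76 without ih_STC_BM 1). Each separated the groups without overlap. Pdgfa, a growth factor for mesenchymal cells, was lower in ih_CTC, at 15.6, 16 and 11.4 CPM in ih_CTC, against 36.3, 27.3 and 28.4 CPM in ih_STC_BM (log2 fold change -1.1 ± 0.26 SE, adjusted p = 0.0099). Of 15 genes of the EGF and HGF families tested, 2 were higher and none lower, and of 22 FGF, PDGF and VEGF genes, 3 were higher and 4 lower (2 and 1 lower without ih_CTC 1 and ih_CTC 2, 2 without ih_STC_BM 2). Without ih_CTC 1, ih_CTC 2 or ih_STC_BM 3, 1 gene of the EGF and HGF families was higher.

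Matrix genes differed in both directions. Of 23 matrix glycoprotein genes tested, 8 were higher and 3 lower in ih_CTC (median log2 fold change 0.75); without ih_STC_BM 3, 5 were higher, and without ih_STC_BM 1, 1 was lower. Lama4, a laminin chain of vessel basement membranes, stood at 103, 123 and 72.5 CPM in ih_CTC, against 8.51, 2.53 and 1.91 CPM in ih_STC_BM (log2 fold change 4.52 ± 0.62 SE, adjusted p = 0.00018, and 5.47 without ih_STC_BM 1). Vcan, the large proteoglycan versican, stood at 619.8, 727 and 441 CPM in ih_CTC, against 68.9, 126 and 33.6 CPM in ih_STC_BM (log2 fold change 2.96 ± 0.50 SE, adjusted p = 0.0010). Col12a1, a collagen that decorates fibril surfaces, stood at 93.8, 129.7 and 80.1 CPM in ih_CTC, against 20.3, 4.66 and 1.47 CPM in ih_STC_BM (log2 fold change 3.51 ± 0.79 SE, adjusted p = 0.0073, and 5.0 without ih_STC_BM 1). None of these 3 genes overlapped between the groups. Dcn, the small proteoglycan decorin, stood at 693, 673 and 673 CPM in ih_CTC, against 182, 81.7 and 21.7 CPM in ih_STC_BM (log2 fold change 2.84 ± 0.84 SE, adjusted p = 0.027, and 3.71 without ih_STC_BM 1), tight in ih_CTC and spread in ih_STC_BM, and its call ended without ih_CTC 1 (adjusted p = 0.062), ih_CTC 2 (0.067), ih_CTC 3 (0.054) or ih_STC_BM 3 (0.086).

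Other matrix genes were lower in ih_CTC. Aspn, a small proteoglycan of cartilage and ligament, stood at 0, 0 and 0.0856 CPM in ih_CTC, against 6.66, 15.7 and 0.293 CPM in ih_STC_BM, a ratio of 292-fold lower (95% counting interval 51.9 to 11594, adjusted p = 0.0083, and 188-fold without ih_CTC 2, at least 64.3-fold without ih_CTC 3, 129-fold without ih_STC_BM 2). Postn, a matrix protein of ligament and tumour stroma, stood at 0, 0 and 0.257 CPM in ih_CTC, against 6.41, 59.1 and 0.147 CPM in ih_STC_BM, a ratio of 294-fold lower (100 to 1427, adjusted p = 0.0035, and 189-fold without ih_CTC 2, at least 194-fold without ih_CTC 3, 40.6-fold without ih_STC_BM 2). ih_STC_BM 2 held most of the Postn counts and ih_STC_BM 3 was at the level of ih_CTC. Mgp, which keeps cartilage and vessels from calcifying, stood at 0.481, 0.245 and 1.28 CPM in ih_CTC, against 103, 8.51 and 0.587 CPM in ih_STC_BM (log2 fold change -5.78 ± 1.2 SE, adjusted p = 0.0045, and -6.66 without ih_CTC 3, -2.78 without ih_STC_BM 1, -6.4 without ih_STC_BM 3), with most counts in ih_STC_BM 1. The main fibrillar collagens did not pass the test: Col1a1 stood at 1624, 1635 and 1447 CPM in ih_CTC, against 3719, 2018 and 496 CPM in ih_STC_BM, and Col1a2 at 1891, 2046 and 2342 CPM in ih_CTC, against 5870.0, 5942 and 1916 CPM in ih_STC_BM. Of 24 collagen chains, 1 was higher and 3 lower. The number higher was 2 without ih_STC_BM 3 and 3 without ih_STC_BM 1 or ih_STC_BM 2, and the number lower 0 without ih_CTC 1, ih_CTC 2 or ih_STC_BM 1, 1 without ih_CTC 3 and 8 without ih_STC_BM 3.

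Matrix proteases and their inhibitors split likewise, with 5 higher (20.8%) and 3 lower (12.5%) of 24 tested, against 7.45% and 10.8% of all tested genes. Without ih_CTC 2 or ih_CTC 3, 3 were higher, without ih_CTC 1 or ih_CTC 2, 1 was lower, and without ih_STC_BM 2, 6 were lower. Mmp3 (stromelysin 1), which cuts proteoglycans and activates other proteases, stood at 9.04, 5.63 and 5.48 CPM in ih_CTC, against 0.617, 0 and 0.147 CPM in ih_STC_BM (log2 fold change 4.71 ± 0.98 SE, adjusted p = 0.0046, and 6.53 without ih_STC_BM 1, 4.04 without ih_STC_BM 2). Mmp14, a membrane-bound collagenase named after its values were seen, was lower in ih_CTC, at 145, 161 and 222 CPM in ih_CTC, against 666, 413 and 535 CPM in ih_STC_BM (log2 fold change -1.61 ± 0.34 SE, adjusted p = 0.0047).

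Cadherins, which join like cells to each other, had 4 higher and 1 lower of 15 tested, with a median log2 fold change of 1.06. Cdh11, the cadherin of mesenchyme and osteoblasts, stood at 36.2, 40.6 and 38.1 CPM in ih_CTC, against 0, 0.304 and 0.147 CPM in ih_STC_BM (log2 fold change 7.8 ± 1.39 SE, adjusted p = 0.0016, and 8.93 without ih_STC_BM 2). The protocadherin Pcdh7 stood at 102, 124 and 78.1 CPM in ih_CTC, against 3.7, 1.82 and 0.587 CPM in ih_STC_BM (log2 fold change 5.61 ± 0.62 SE, adjusted p = 2.6e-05, and 6.32 without ih_STC_BM 1). Cdh2, the neural and mesenchymal N-cadherin, stood at 108, 116 and 90.2 CPM in ih_CTC, against 37.6, 22.7 and 44.4 CPM in ih_STC_BM (log2 fold change 1.59 ± 0.33 SE, adjusted p = 0.0048). With any 1 of the 6 libraries left out, 4 or 5 cadherins were higher, and none was lower without ih_CTC 1, ih_CTC 2 or ih_CTC 3. Of 11 transcription factors of the epithelial to mesenchymal transition, 4 were higher, Prrx1 and Foxf1 among them, and none lower. Foxf1, a factor of gut and lung mesenchyme, stood at 7.69, 6.86 and 11.1 CPM in ih_CTC, against 0.37, 0.811 and 0.88 CPM in ih_STC_BM (log2 fold change 3.62 ± 0.61 SE, adjusted p = 0.0014). Snai1 stood at 53, 45.3 and 32.5 CPM in ih_CTC, against 168, 38.5 and 30.4 CPM in ih_STC_BM and did not pass the test. Only 2 of these factors were higher without ih_CTC 1, ih_CTC 2, ih_CTC 3, ih_STC_BM 1 or ih_STC_BM 3, and without ih_STC_BM 2, 6 were, while the number lower was 1 without ih_STC_BM 2 or ih_STC_BM 3. Itga1, an integrin that binds collagen, stood at 6.54, 7.84 and 5.99 CPM in ih_CTC, against 0.493, 1.32 and 0.587 CPM in ih_STC_BM (log2 fold change 3.03 ± 0.61 SE, adjusted p = 0.0037, and 3.65 without ih_STC_BM 2), among 18 integrins of which 1 was higher and 2 lower. The share of integrins called was 16.7%, against 18.2% of all tested genes. The integrins lower numbered 0 without ih_CTC 1 or ih_CTC 2 and 1 without ih_CTC 3, ih_STC_BM 1 or ih_STC_BM 3, and those higher 2 without ih_STC_BM 2.

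Hox genes set the lines apart by cluster. Of 34 tested, 6 were higher in ih_CTC, all in the Hoxc cluster on chromosome 15 (positions 102921103 to 103036852), and 1 was lower, in the Hoxa cluster on chromosome 6. Hoxc8, a factor of the thoracic body region, stood at 9.52, 11.8 and 9.5 CPM in ih_CTC, against 0, 0 and 0 CPM in ih_STC_BM, at least 85.5-fold higher (adjusted p = 9.9e-07, and at least 51.5-fold without ih_STC_BM 2). Hoxc9 stood at 6.15, 4.82 and 7.28 CPM in ih_CTC, against 0, 0 and 0 CPM in ih_STC_BM, at least 50.1-fold higher (adjusted p = 2.1e-05, and at least 30.1-fold without ih_STC_BM 2). Hoxc10, a lumbar-region factor, stood at 6.35, 6.04 and 9.08 CPM in ih_CTC, against 0, 0 and 0 CPM in ih_STC_BM, at least 59.2-fold higher (adjusted p = 0.00014, and at least 35.7-fold without ih_STC_BM 2). No count of these 3 neighbouring genes was found in any ih_STC_BM library.

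Hoxc6 and Hoxc4, further along the cluster, were less sharply divided. Hoxc6 stood at 17, 16.8 and 11.5 CPM in ih_CTC, against 3.21, 8.21 and 3.81 CPM in ih_STC_BM (log2 fold change 1.56 ± 0.38 SE, adjusted p = 0.011), and Hoxc4, named after its values were seen, overlapped between the groups, at 4.81, 2.69 and 4.54 CPM in ih_CTC, against 2.96, 4.76 and 0.88 CPM in ih_STC_BM. Transcripts of neighbouring Hoxc genes overlap in the annotation, so reads can be shared between them. Hoxa11, a factor of forearm and reproductive tract development named after its values were seen, stood at 0, 0 and 0.0856 CPM in ih_CTC, against 5.18, 1.72 and 6.16 CPM in ih_STC_BM, a ratio of 139.9-fold lower in ih_CTC (95% counting interval 24.5 to 5578, adjusted p = 3.2e-05, and 89.9-fold without ih_CTC 2, at least 30.8-fold without ih_CTC 3). The other 10 Hoxa genes tested did not pass the test. Among them, Hoxa13 had no counts in any ih_CTC or ih_STC_BM library, so it could not pass. The number of Hox genes lower was 2 without ih_STC_BM 2 and 3 without ih_STC_BM 3. Of 30 other patterning factors tested, 6 were higher and 1 lower (0 without ih_CTC 1 or ih_CTC 2 and 2 without ih_STC_BM 3). Pitx1, a factor of hindlimb identity, stood at 13.7, 14 and 12.3 CPM in ih_CTC, against 0.863, 0.101 and 1.03 CPM in ih_STC_BM (log2 fold change 4.37 ± 0.62 SE, adjusted p = 0.00022). Tbx3, a factor of limb and heart development, stood at 59.1, 65.5 and 61.3 CPM in ih_CTC, against 32.7, 14.9 and 10.6 CPM in ih_STC_BM (log2 fold change 1.68 ± 0.42 SE, adjusted p = 0.013, and 2.28 without ih_STC_BM 1).

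**Figure D3:**
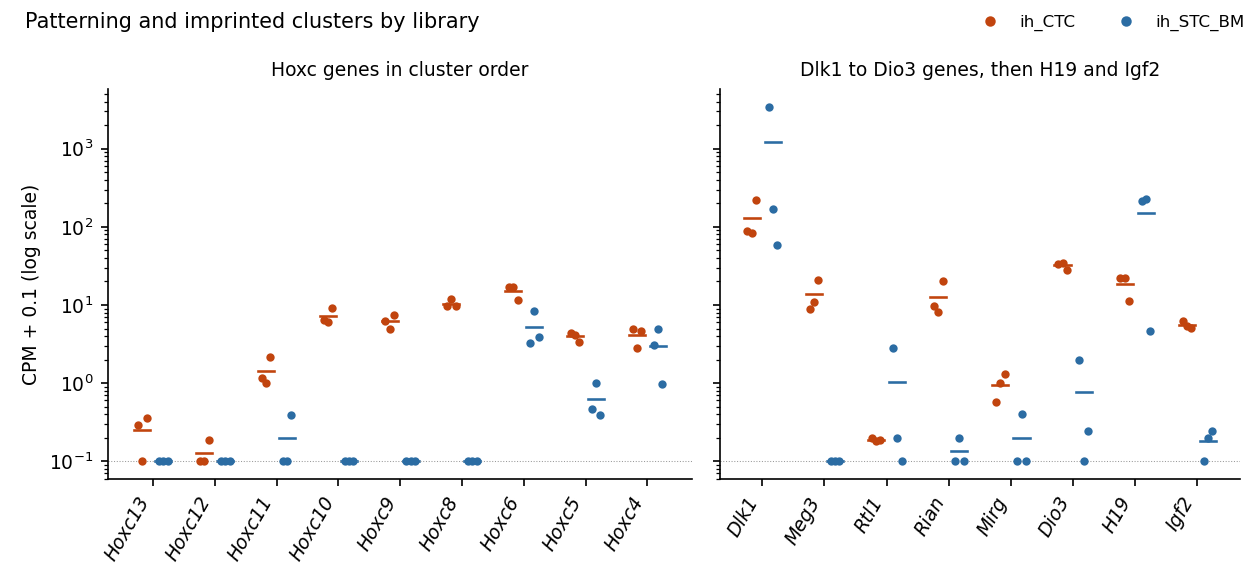
Level of the Hoxc genes in cluster order, of the genes from Dlk1 to Dio3 and of H19 and Igf2 in each library, in CPM + 0.1 on a log scale, with ih_CTC in red on the left and ih_STC_BM in blue on the right; bars are means of 3 libraries and the dotted line marks 0 CPM. Hoxc8, Hoxc9, Hoxc10 and Meg3 are at 0 in all ih_STC_BM libraries, and Dlk1 and H19 overlap between the groups.

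Imprinted genes, which are read from the maternal or the paternal copy alone, differed in both directions. Of 22 tested, 7 were higher and 3 lower in ih_CTC, with a median log2 fold change of 0.15. None was lower without ih_CTC 1, ih_CTC 2 or ih_STC_BM 1, and 1 was without ih_CTC 3. In the Dlk1 to Dio3 cluster on chromosome 12 (positions 109452823 to 110281097), the maternally read noncoding RNA Meg3 stood at 8.75, 10.9 and 21 CPM in ih_CTC, against 0, 0 and 0 CPM in ih_STC_BM, at least 113-fold higher (adjusted p = 0.014, and at least 68-fold without ih_STC_BM 2). Its neighbour Rian, also noncoding and maternally read, stood at 9.62, 8.08 and 20.3 CPM in ih_CTC, against 0, 0.101 and 0 CPM in ih_STC_BM, a ratio of 315-fold higher (95% counting interval 56.2 to 12465, adjusted p = 0.0048, and at least 63.2-fold without ih_STC_BM 2). Dlk1, a paternally read ligand of the Notch family that holds back fat cell formation, named after its values were seen, stood at 88.6, 84.1 and 219 CPM in ih_CTC, against 3440.1, 167 and 58.8 CPM in ih_STC_BM (log2 fold change -3.23 ± 0.97 SE, adjusted p = 0.030, and -3.82 without ih_CTC 3, 0.21 without ih_STC_BM 1, -3.84 without ih_STC_BM 3). Dlk1 overlapped between the groups, and its call ended without ih_STC_BM 1 (adjusted p = 0.84), ih_CTC 1 (adjusted p = 0.11) or ih_CTC 2 (0.12). Dio3, a thyroid hormone inactivating enzyme at the far end of the cluster and named after its values were seen, stood at 33.6, 34.4 and 28.2 CPM in ih_CTC, against 1.85, 0 and 0.147 CPM in ih_STC_BM (log2 fold change 5.58 ± 0.98 SE, adjusted p = 0.0014, and 8.78 without ih_STC_BM 1, 4.93 without ih_STC_BM 2).

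H19 and Igf2, which share an imprinting control on chromosome 7, were called in opposite directions. Igf2, a fetal growth factor read from the paternal copy, stood at 6.06, 5.22 and 5.05 CPM in ih_CTC, against 0, 0.101 and 0.147 CPM in ih_STC_BM, a ratio of 67.2-fold higher in ih_CTC (95% counting interval 18.3 to 559, adjusted p = 0.0045). H19, a noncoding RNA read from the maternal copy, stood at 22, 22.2 and 11 CPM in ih_CTC, against 215, 227 and 4.55 CPM in ih_STC_BM (log2 fold change -3.02 ± 0.83 SE, adjusted p = 0.020, and -3.64 without ih_STC_BM 3), with ih_STC_BM 3 below ih_CTC. Its call ended without ih_CTC 1 (adjusted p = 0.061), ih_CTC 2 (0.066), ih_CTC 3 (0.076) or ih_STC_BM 1 (0.056). Ndn, a paternally read growth suppressor on another part of chromosome 7, stood at 16.1, 17.5 and 10.6 CPM in ih_CTC, against 0, 0 and 0 CPM in ih_STC_BM, at least 122-fold higher (adjusted p = 0.00024, and at least 73.3-fold without ih_STC_BM 2).

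Genes of Wnt and BMP signalling differed in both directions. Of 35 Wnt genes tested, 6 (17.1%) were higher and 4 (11.4%) lower, and of 35 TGF-beta and BMP genes, 7 (20%) were higher and 3 (8.57%) lower. Over all tested genes, 7.45% were higher and 10.8% lower. Sfrp1, a secreted protein that captures Wnt ligands, stood at 5.77, 6.61 and 10.1 CPM in ih_CTC, against 0, 0.101 and 0.293 CPM in ih_STC_BM, a ratio of 62.3-fold higher in ih_CTC (95% counting interval 21.1 to 304, adjusted p = 0.00014, and 136-fold without ih_STC_BM 3). Fstl1, a secreted glycoprotein that modulates BMP signals, stood at 479, 521 and 465 CPM in ih_CTC, against 114, 77.5 and 59.7 CPM in ih_STC_BM (log2 fold change 2.54 ± 0.33 SE, adjusted p = 0.00012). The TGF-beta and BMP genes that were higher numbered 2 without ih_STC_BM 3, 3 without ih_CTC 1 or ih_CTC 2 and 4 without ih_CTC 3, and those lower 0 without ih_CTC 1 or ih_CTC 2, 1 without ih_STC_BM 1, 6 without ih_STC_BM 3 and 7 without ih_STC_BM 2. The Wnt genes that were lower numbered 1 without ih_CTC 1 and 2 without ih_CTC 2, ih_CTC 3 or ih_STC_BM 1. The IGF genes were even, with 3 higher (1 without ih_CTC 1, ih_CTC 2, ih_CTC 3 or ih_STC_BM 1) and 3 lower (0 without ih_CTC 1 or ih_CTC 2 and 1 without ih_CTC 3 or ih_STC_BM 1) of 16.

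Ribosomal protein genes had the largest share of calls of the 53 lists. Of 26 cytosolic ribosomal protein genes tested, 21 were lower in ih_CTC and none higher, with a median log2 fold change of -1.57. Their summed level was 23324, 20509 and 26257 CPM in ih_CTC, against 57316, 41786 and 97880.0 CPM in ih_STC_BM. The highest sums stood in ih_STC_BM 3 and ih_STC_BM 1, the 2 libraries with the lowest intron share, and the part of RNA quality in this difference was not tested. With both left out, 9 of the 26 were lower and none higher, and 19 were lower with that share as a covariate. Without ih_CTC 1, ih_CTC 2 or ih_STC_BM 3 alone, 10, 8 or 13 were lower.

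Rps18, a protein of the small ribosomal subunit, stood at 177, 162 and 78.9 CPM in ih_CTC, against 925, 611 and 1469 CPM in ih_STC_BM (log2 fold change -2.84 ± 0.37 SE, adjusted p = 0.00012). Rps12, also of the small subunit, stood at 398, 369.8 and 539 CPM in ih_CTC, against 1258, 1116 and 2320.2 CPM in ih_STC_BM (log2 fold change -1.84 ± 0.36 SE, adjusted p = 0.0029). Rps2 showed the largest fall of the list, at 30.6, 30.1 and 36.3 CPM in ih_CTC, against 1684, 531 and 3265 CPM in ih_STC_BM (log2 fold change -5.82 ± 0.52 SE, adjusted p = 2.8e-06, and -5.15 without ih_STC_BM 3), but its reads can be split with near-identical copies. Summed with the 51 other genes annotated as Rps2 copies, the level was 3303, 2973 and 3609 CPM in ih_CTC, against 8219, 2478 and 14988 CPM in ih_STC_BM, which overlap. The sums for Rps18 with its 6 copies did not overlap, at 544, 438 and 508 CPM in ih_CTC, against 1957, 1279 and 3085 CPM in ih_STC_BM.

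**Figure D4:**
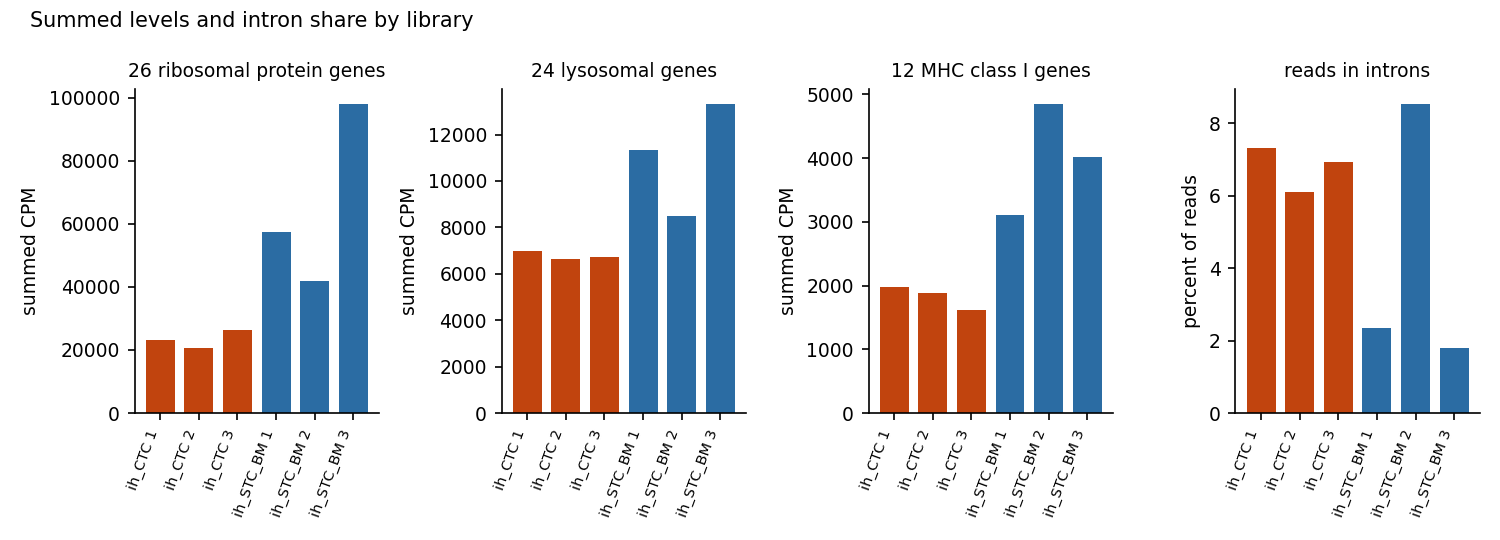
Bars give, for each library, the summed CPM of 26 ribosomal protein, 24 lysosomal and 12 MHC class I genes, and the percent of reads in introns; ih_CTC is red on the left and ih_STC_BM blue on the right. All 3 sums are lower in every ih_CTC library than in every ih_STC_BM library, while the intron share of ih_STC_BM 2 is the highest of the 6.

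Several genes that show peptides to T cells were lower in ih_CTC. Of 12 genes of MHC class I presentation tested, 6 were lower and none higher (1 without ih_STC_BM 2), with a median log2 fold change of -1.13, and their summed level was 1617 to 1983 CPM in ih_CTC, against 3105 to 4842 CPM in ih_STC_BM. H2-K1, a class I heavy chain, stood at 29.1, 29.6 and 18.2 CPM in ih_CTC, against 75.5, 196 and 174 CPM in ih_STC_BM (log2 fold change -2.54 ± 0.37 SE, adjusted p = 0.00030), although class I genes are alike enough to share reads. B2m, the light chain common to all class I molecules, stood at 343, 305 and 397 CPM in ih_CTC, against 639.9, 987 and 746 CPM in ih_STC_BM (log2 fold change -1.18 ± 0.27 SE, adjusted p = 0.0071). Psmb8, the interferon-induced subunit of the immunoproteasome, stood at 6.63, 5.63 and 5.57 CPM in ih_CTC, against 31.7, 36 and 74.8 CPM in ih_STC_BM (log2 fold change -2.99 ± 0.52 SE, adjusted p = 0.0013). For these 3 genes every ih_CTC library was below every ih_STC_BM library. Tap1, a subunit of the pump that loads peptides, stood at 12, 13.6 and 15.4 CPM in ih_CTC, against 33.8, 61.3 and 38.3 CPM in ih_STC_BM (log2 fold change -1.7 ± 0.39 SE, adjusted p = 0.0086). Of 24 interferon response genes, 3 were lower, or 12.5% against 10.8% of all tested genes, and none higher. Those lower numbered 0 without ih_CTC 1 or ih_CTC 2 and 1 without ih_CTC 3, and those higher 1 without ih_STC_BM 1 or ih_STC_BM 2.

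Lysosomal genes went the same way, with 10 lower and none higher of 24 tested and a median log2 fold change of -0.82. Ctsd, the main aspartic protease of the lysosome, stood at 291, 251 and 327 CPM in ih_CTC, against 984, 894 and 1622 CPM in ih_STC_BM (log2 fold change -2.01 ± 0.40 SE, adjusted p = 0.0033). Ctsh, a cysteine protease, stood at 3.08, 4.16 and 4.37 CPM in ih_CTC, against 16, 12.3 and 9.83 CPM in ih_STC_BM (log2 fold change -1.71 ± 0.32 SE, adjusted p = 0.0021). Both separated the groups without overlap. Fewer lysosomal genes were lower without ih_CTC 1, ih_CTC 2 or ih_CTC 3, at 5, 4 and 6, and 4 without the 2 ih_STC_BM libraries of low intron share.

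Cell cycle genes were called in 1 direction, with 6 higher and none lower (1 without ih_STC_BM 2) of 29 tested and a median log2 fold change of 0.48. Their summed level overlapped between the groups, at 5249.8, 5143 and 3577 CPM in ih_CTC, against 4412, 1674 and 5751 CPM in ih_STC_BM. Bub1, a kinase of the spindle checkpoint, stood at 86.6, 86 and 55.8 CPM in ih_CTC, against 9.74, 15.6 and 8.51 CPM in ih_STC_BM (log2 fold change 2.75 ± 0.59 SE, adjusted p = 0.0053). Mki67, the proliferation antigen, stood at 328, 348 and 189 CPM in ih_CTC, against 45.5, 61.2 and 6.45 CPM in ih_STC_BM (log2 fold change 2.93 ± 0.82 SE, adjusted p = 0.021), and was lowest in ih_STC_BM 3. Top2a, which untangles DNA in dividing cells, stood at 567, 593 and 326 CPM in ih_CTC, against 136, 173 and 68.6 CPM in ih_STC_BM (log2 fold change 1.98 ± 0.55 SE, adjusted p = 0.021). The calls of Mki67 and Top2a both ended without ih_CTC 1, ih_CTC 2, ih_STC_BM 1 or ih_STC_BM 3, with adjusted p of 0.051 to 0.075. Without ih_CTC 1 or ih_CTC 2, 1 cell cycle gene was higher, and without ih_STC_BM 3, 3 were. Cdkn2c, an inhibitor of the kinases that start the cycle, was also higher in ih_CTC, at 224, 224 and 234 CPM in ih_CTC, against 96.8, 71 and 57.2 CPM in ih_STC_BM (log2 fold change 1.6 ± 0.26 SE, adjusted p = 0.00063). Cdkn2a, the tumour suppressor locus often lost in cell lines, had 1 count in ih_STC_BM and none in ih_CTC, at or under the floor in both. Of 20 p53 target genes, 4 were lower, or 20% against 10.8% of all tested genes, and none higher. Those lower numbered 0 without ih_CTC 1 or ih_CTC 2 and 1 without ih_CTC 3, and those higher 3 without ih_STC_BM 2.

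**Figure D5:**
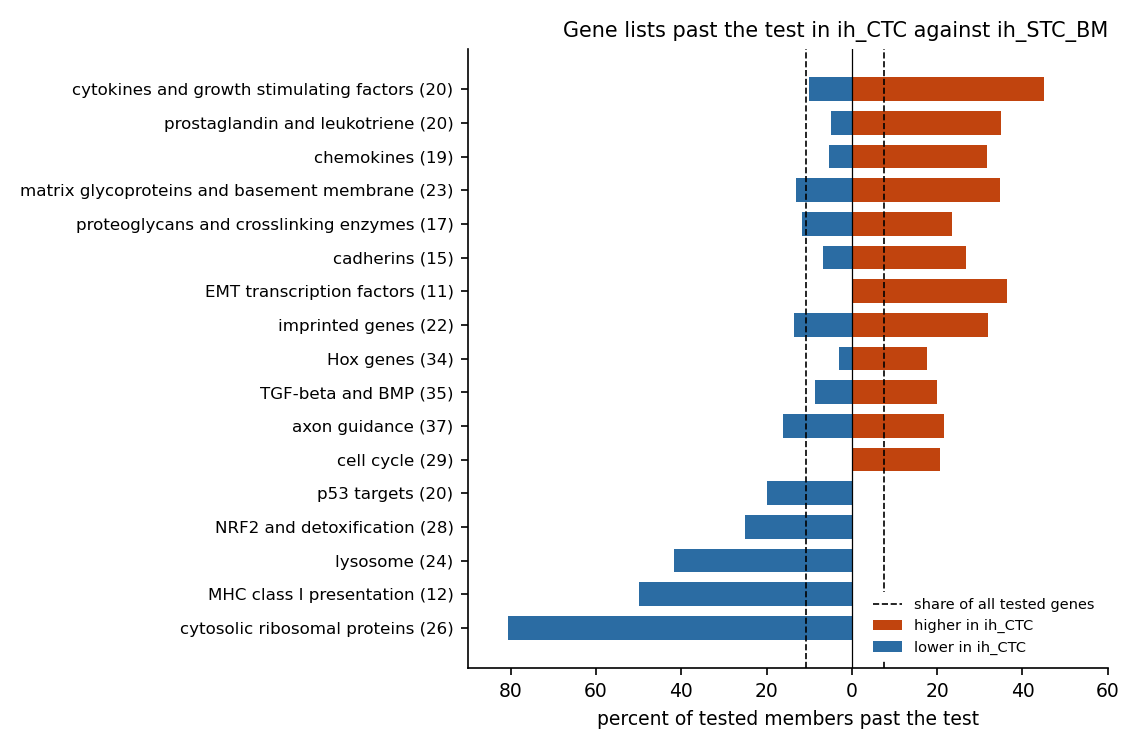
Percent of the tested members of 17 gene lists that were lower (blue, left) or higher (red, right) in ih_CTC than in ih_STC_BM at an adjusted p under 0.05, with the number tested in brackets. Dashed lines mark the shares of all tested genes, 10.8% lower and 7.45% higher; the ribosomal protein bar reaches 80.8% and the cytokine bar 45%.

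Granulocyte and lymphocyte markers were low in both lines. The 14 granulocyte markers summed to 7.71 to 9.81 CPM in ih_CTC and 7.04 to 10.4 CPM in ih_STC_BM. The 12 lymphocyte markers, 11 of them tested, summed to under 1 CPM in each of the 6 libraries. The glial factors Olig2 and Sox10 had no counts in any of the 6 libraries. Msln, a surface protein of the mesothelium that lines the peritoneum, stood at 158, 156 and 123 CPM in ih_CTC, against 366, 391 and 104 CPM in ih_STC_BM and did not pass the test, while Upk3b, a second mesothelial marker, had no counts in any library. Of 7 mesothelial markers tested, 2 were higher (1 without ih_CTC 1, ih_CTC 2, ih_CTC 3, ih_STC_BM 1 or ih_STC_BM 3) and 1 lower (0 without ih_CTC 1, ih_CTC 2 or ih_CTC 3 and 2 without ih_STC_BM 3) in ih_CTC. Of 7 genes tested on chromosome Y, 2 were lower in ih_CTC, with a median log2 fold change of 0.56 over the 7. The 2 lower genes were Eif2s3y and Ddx3y. Eif2s3y had no counts in ih_CTC, against 6.66, 50.2 and 1.61 CPM in ih_STC_BM, and Ddx3y had none in ih_CTC, against 2.96, 35.7 and 2.93 CPM in ih_STC_BM. ih_STC_BM 2 held most of both. Both were lower in ih_CTC (adjusted p = 0.0066 and 0.020), and the call of Ddx3y ended without ih_CTC 1 (adjusted p = 0.053) or ih_CTC 2 (0.060).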

How the data were processed

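Gene-level expected counts of 20 libraries were deposited by the authors and are not scaled. Per the submitters' processing notes, the tools included RSEM 1.2.26, DESeq2 and STAR, with no role stated, and no build is named in the sources used here. The authors' deposited alignment table gives the mapped share, 67.4% to 77% in the 6 libraries compared, and the intron share. Groups were taken from the cell type label, and replicates are numbered in accession order. Of the count values, 8.37% were not whole, and all were rounded to whole numbers.

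Genes were kept with filterByExpr of edgeR 4.0.16 (R 4.3.3; minimum count 10, minimum total 15), scaled with TMM and fitted with glmQLFit over all 7 groups of the series (13 residual degrees of freedom), which share 1 estimate of the spread. ih_CTC was tested against ih_STC_BM with glmQLFTest, with Benjamini-Hochberg adjustment over all 15779 genes tested. SE is a standard error of the log2 fold change worked back from the test, as its absolute size over the square root of the F statistic. It rests on the spread estimated over all 7 groups and not on these groups alone. A value after "without" a library is the log2 fold change with that library left out, given where it moved by over 1.5 times on the linear scale. The limit that 0 counts allow was set at 3 counts over a group, or 0.0874 CPM in ih_CTC and 0.121 CPM in ih_STC_BM. Ratios with 3 or fewer counts in a group compare counts pooled over each group, relative to pooled scaled library size. They carry a 95% interval, which covers counting error only. Counts were also simulated for all 20 libraries, with the same dispersion of 0.1 for every gene and group. On them, the test called 11 of 67 genes changed 2-fold, 60 of 67 changed 4-fold, 66 of 66 changed 16-fold and 3 of 15249 unchanged genes. The wider spread within ih_STC_BM than within ih_CTC was not simulated, so these counts do not give the error rates of this comparison.

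The comparison, the 53 gene lists and their markers were chosen with earlier results of these data known. All 1048 list symbols were matched to the deposited annotation, whose coordinates are used for genes, and 960 were tested. Named genes are the 12 largest rises and 12 largest falls among called genes with no overlap and 20 CPM or more in the higher group, up to 4 called members of each list with 5 CPM or more, and the first 2 genes of each list. Predicted, Riken-clone and unnamed genes, pseudogenes and sex-linked list genes were left out before the rises and falls were ranked. This left 1518 of 1590 genes. Label markers were also named, as were genes said in the text to have been chosen after their values were seen. Some genes that this rule names are not reported here. Promoters are RefSeq GRCm38.p6. Alternatives were other scalings, no filter, DESeq2 1.42.0, limma-voom (limma 3.58.1), the 6 libraries alone, stricter fold rules, the intron share and libraries left out. Tables and plots were made with matplotlib 3.10.9, pandas 2.3.3, numpy 2.4.6 and scipy 1.17.1 in Python 3.11.15.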

Additional observations from a re-analysis of the deposited data

How the results depend on the processing

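Against 2877 genes called (1176 higher, 1701 lower in ih_CTC), 2864 were called with RLE scaling, 2901 with upper quartile scaling, 3806 with DESeq2, 3039 with limma-voom and 2194 without a filter on low counts. A fit of the 6 libraries alone called 823 of 12497 tested (448 higher, 375 lower, 815 shared). There, fewer libraries estimate the spread, and only ih_CTC and ih_STC_BM enter it. The mean profile distance was 1.30 within ih_STC_BM and 0.585 within ih_CTC. The part of each of these in the lower number of calls was not tested. A test against a log2 fold change of 1 called 570 (329 higher, 241 lower). With both ih_STC_BM libraries of low intron share left out, 1974 were called, 1123 of them lower and 1062 shared. Leaving out 1 library gave 1150 to 5330 calls, 588 to 2702 higher and 562 to 2628 lower; the most came without ih_STC_BM 2. Fits that leave out libraries use fewer samples by construction; other causes were not tested. Of 103 named genes that were called, 89 kept the call with any 1 library left out. In the fit of the 6 libraries alone, 82 kept it and 18 lost it. Against a log2 fold change of 1, 69 kept it and 34 lost it. In the 6-library fit, matrix glycoprotein genes had 2 higher and 0 lower, as did TGF-beta and BMP genes. MHC class I genes had 3 lower in that fit, while cadherins stayed at 4 higher and 1 lower. Among called genes, Dlk1 changed sign, ranging over -3.84 to 0.21 with 1 library left out. Of genes that did not pass the test, signs turned as follows, on the log2 scale. With 1 library left out, the ranges were -0.85 to 0.15 for Adgre1, -0.92 to 0.32 for Col1a1, -0.56 to 1.41 for Csf1r, -0.28 to 0.44 for Pdgfra, -0.53 to 0.73 for Pdgfrb, -0.92 to 0.23 for Ptprc and -1.30 to 0.34 for Snai1. Without both libraries of low intron share, the value was 0.96 for Csf1r, -0.28 for Hoxc4, -0.10 for Pdgfra, 0.27 for Pdgfrb and 0.14 for Snai1. With the intron share as a covariate it was 0.36 for Csf1r, -0.10 for Pdgfra and 0.032 for Pdgfrb, and with limma-voom 0.025 for Col1a1, 0.52 for Csf1r and 0.22 for Pdgfrb. Genes at 0 counts in a group have no measured level below 3 counts over that group. No paired analysis was possible because the labels give no replicate numbers.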

Other observations

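Genes of axon guidance, which also steer vessels and stromal cells, were split, with 8 higher and 6 lower in ih_CTC of 37 tested. Sema3c, a secreted semaphorin, stood at 139.5, 148 and 60.2 CPM in ih_CTC, against 9.13, 11.6 and 9.09 CPM in ih_STC_BM (log2 fold change 3.54 ± 0.71 SE, adjusted p = 0.0036). Slit3, a secreted ligand of Robo receptors, stood at 172, 184 and 258 CPM in ih_CTC, against 25.6, 40.9 and 22.4 CPM in ih_STC_BM (log2 fold change 2.78 ± 0.32 SE, adjusted p = 3.2e-05). Both were higher in every ih_CTC library. Without ih_CTC 1, ih_CTC 2 or ih_CTC 3, 2, 1 or 1 axon guidance genes were lower. Of 17 neuronal genes, 3 (17.6%) were higher and 1 (5.88%) lower, against 7.45% and 10.8% of all tested genes. Those lower numbered 3 without ih_STC_BM 2 and 2 without ih_STC_BM 1, and those higher 2 without ih_CTC 1, ih_CTC 2, ih_CTC 3 or ih_STC_BM 3. Nefm, the medium neurofilament chain, stood at 15.5, 16.2 and 13.1 CPM in ih_CTC, against 1.48, 0.507 and 0.733 CPM in ih_STC_BM (log2 fold change 4.03 ± 0.71 SE, adjusted p = 0.0014). Nefl, the light chain, stood at 14.2, 13.5 and 7.71 CPM in ih_CTC, against 2.96, 0.71 and 0.733 CPM in ih_STC_BM (log2 fold change 3.0 ± 0.71 SE, adjusted p = 0.011, and 4.01 without ih_STC_BM 1). Stmn2, which loosens microtubules in growing axons, went the other way, at 1.44, 1.96 and 1.37 CPM in ih_CTC, against 23.1, 11.8 and 4.25 CPM in ih_STC_BM (log2 fold change -3.02 ± 0.71 SE, adjusted p = 0.0094, and -2.33 without ih_STC_BM 1).

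Most stress and detoxification genes tested were not called. Of 28 genes of the NRF2 response and detoxification, 7 were lower and none higher (1 without ih_STC_BM 2 or ih_STC_BM 3); without ih_CTC 1, ih_CTC 2 or ih_CTC 3, 3 were lower. Gstm1, a glutathione transferase with close copies that can share reads, stood at 60.3, 54.2 and 97.3 CPM in ih_CTC, against 434, 563 and 312 CPM in ih_STC_BM (log2 fold change -2.63 ± 0.37 SE, adjusted p = 0.00024). Ephx1, which opens toxic epoxides, stood at 83.6, 71.9 and 62.4 CPM in ih_CTC, against 312, 374 and 259 CPM in ih_STC_BM (log2 fold change -2.12 ± 0.47 SE, adjusted p = 0.0068). Neither gene overlapped between the groups. Of 20 heat shock and unfolded protein genes, 1 (5%) was higher and 4 (20%) lower, against 7.45% and 10.8% of all tested genes. Those higher numbered 0 without ih_CTC 1, ih_CTC 2, ih_CTC 3, ih_STC_BM 1 or ih_STC_BM 3 and 3 without ih_STC_BM 2. Those lower numbered 1 without ih_CTC 1 or ih_CTC 2, 2 without ih_STC_BM 3 and 7 without ih_STC_BM 2. Xbp1, a transcription factor of the unfolded protein response, stood at 69.6, 62.8 and 63.6 CPM in ih_CTC, against 119, 185 and 244 CPM in ih_STC_BM (log2 fold change -1.49 ± 0.30 SE, adjusted p = 0.0038). Ddit3 (CHOP), a stress factor that can lead to cell death, was the only called gene of 22 in the ATF4 list, at 14.7, 15.7 and 50.4 CPM in ih_CTC, against 113, 229 and 216 CPM in ih_STC_BM (log2 fold change -2.79 ± 0.57 SE, adjusted p = 0.0042, and -3.61 without ih_CTC 3); without ih_CTC 3, ih_STC_BM 1 or ih_STC_BM 2, 7, 2 or 8 of that list were lower.

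Of 24 genes of glycolysis and the hypoxia response, 3 were higher and none lower, but 12 were higher with the intron share as a covariate, 10 without both ih_STC_BM libraries of low intron share and 1 without ih_CTC 1 or ih_CTC 2. Those lower numbered 1 without ih_STC_BM 3 and 3 without ih_STC_BM 2. Pdk1, which keeps pyruvate out of mitochondrial oxidation, stood at 155, 166 and 147 CPM in ih_CTC, against 58.6, 27.9 and 54 CPM in ih_STC_BM (log2 fold change 1.74 ± 0.32 SE, adjusted p = 0.0018). The median log2 fold change also differed by chromosome. It was 0.59 over 392 tested genes of chromosome 18, where 71 were higher and 15 lower in ih_CTC, and -0.37 over 526 genes of chromosome 19, where 19 were higher and 100 lower. On chromosome 17, 29 of 788 genes were higher and 123 lower. Other chromosomes were uneven too: on chromosome 5, 60 of 936 were higher and 166 lower, and on chromosome 9, 121 of 910 were higher and 50 lower. The share called was 21.9% on chromosome 18, 22.6% on 19, 19.3% on 17, 24.1% on 5 and 18.8% on 9. Over all tested genes it was 18.2%, with 7.45% higher and 10.8% lower.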
